A study of Mus musculus with 24 samples.

Results

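MHC class I molecules carry peptides from inside the cell to its surface, and the transcripts of 10 genes of this pathway were followed through colon myeloid cells: H2-K1, H2-D1, B2m, Tap1, Tap2, Tapbp, Nlrc5, Psmb8, Psmb9 and Psmb10. They were chosen by name, and all 10 were found among the 17301 genes of the deposited expression table by their Ensembl identifiers. A class I molecule is a heavy chain (H2-K1 or H2-D1 among the classical chains of C57BL/6 mice) held by β2-microglobulin and loaded with a peptide in the endoplasmic reticulum. The peptides are cut by the proteasome, whose catalytic subunits can be exchanged for the inducible subunits Psmb8, Psmb9 and Psmb10 to form the immunoproteasome, and are pumped into the reticulum by the transporter Tap1/Tap2. Nlrc5 is the transactivator of class I promoters, and interferon-γ is the classical inducer of the whole set.

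RNA was sequenced from F4/80hi CD11b+ macrophages with high (MHCIIhi) or low (MHCIIlow) surface MHC class II, Ly6Chi MHCII- monocytes and Ly6Ghi neutrophils, sorted from colon lamina propria (LP) and from colon tumours. There were 8 groups of 3 libraries, 24 in all. LP libraries came from C57BL/6J mice and tumour libraries from Apc Min/+ mice on the same background, which carry a germline Apc mutation and form intestinal adenomas; both sexes were used and every library pooled the tissue of 13 to 15 mice, per the methods, under a pool number written as a Roman numeral. The methods describe dextran sodium sulphate (DSS), a chemical that injures the colon lining, given at 6 to 8 weeks of age, and use at 3 to 4 months, both for the tumour mice and for C57BL/6J controls. In the methods the DSS concentration was higher for the tumour mice than for the controls. The labels call the LP healthy and do not name DSS for it. The way each tissue was digested also differed: LP was stripped of epithelium with EDTA first, tumours were not. Genotype, DSS treatment and digestion change together, so that their parts in any difference between tumour and LP cannot be told apart.

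Depth ranged from 12.8 to 41.7 M reads on genes per library (median 26.4 M). The member with the fewest reads in any library was Psmb10 with 48, and the one with the most was H2-D1 with 312545. The markers of neutrophils and macrophages separated the sorted cells: the summed RPKM of 7 neutrophil markers was 11600 to 30600 in neutrophil libraries and at most 301 elsewhere, and that of 8 macrophage markers was 3700 to 7460 in macrophage libraries and at most 736 elsewhere. The 6 monocyte markers did not separate LP monocytes from neutrophils, at 857 to 1260 RPKM in LP monocytes. Neutrophil libraries held 649 to 806 RPKM of them (LP) and 924 to 1290 RPKM (tumour). They reached 2790 to 3510 in tumour monocytes, and were at 126 to 453 in LP and 13.4 to 24.6 in tumour MHCIIlow macrophages and at 58.5 to 65.8 and 13.1 to 18.1 in MHCIIhi macrophages. Markers of other cells differed between the tissues. Summed over 6 fibroblast markers, LP libraries held 6.83 to 62 RPKM and tumour libraries 0.0128 to 1.57, with 5 markers at 3 reads or fewer in all tumour monocyte libraries. The 7 epithelial markers summed to 4.95 to 212 RPKM in LP and 7.49 to 316 in tumour libraries. They overlapped between tissues except in neutrophils, at 12.7 to 62.2 in LP and 151 to 307 in tumours. The 6 measured markers of B and plasma cells summed to 11 to 1300.0 in LP and 0.192 to 69.2 in tumours. The tissues stood furthest apart in neutrophils (358 to 1300.0 in LP, 0.66 to 20.1 in tumours) and monocytes (157 to 575 and 0.192 to 4.68). In macrophages these markers were at 15 to 26.5 and 6.63 to 15.3 (MHCIIhi) and at 11 to 229 and 6.34 to 69.2 (MHCIIlow). The 8 measured markers of T and innate lymphoid cells summed to 15.6 to 235 RPKM in LP and 3.07 to 73.4 in tumours, and the 7 dendritic cell markers to 19.1 to 187 in LP and 2.68 to 28.5 in tumours. Dendritic cell markers did not overlap between tissues in any population, and were at 92.3 to 187 in LP and 2.68 to 20.8 in tumour neutrophils. The part of these cells in the differences below was not tested. In RNA from sorted bulk cells, fewer cells of a type and less RNA per cell cannot be told apart.

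Of the members, 7 lie on chromosome 17 (build GRCm38/mm10), where the class I processing genes stand side by side. Psmb9 (minus strand, 34181987 to 34187764) and Tap1 (plus strand, 34187553 to 34197225) overlap head to head by 212 bases, Psmb8 (34197721 to 34201454) starts 495 bases after Tap1, and Tap2 (34203527 to 34216321) follows 2072 bases further on. H2-K1 (minus strand, 33996017 to 34000347) and Tapbp (33915899 to 33929292) lie to one side of this cluster and H2-D1 (35262730 to 35267499) to the other. B2m lies on chromosome 2 (122147686 to 122153083), Nlrc5 (94434356 to 94527272) and Psmb10 (minus strand, 105935735 to 105938444) on chromosome 8. Part of their annotated transcripts also occurs in other genes: 9.22% of all 51-base stretches (the read length) of H2-K1 and 12.2% of those of H2-D1 were shared with other genes, mostly class I, 23% of those of Tapbp and 11.8% of those of Psmb8 with predicted or overlapping genes, and none of those of B2m and Psmb10. Reads of overlapping genes cannot be told apart without strand.

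The promoters of the class I heavy chains are a textbook case of shared short motifs read by Nlrc5 and its partners, NF-κB and interferon-regulated factors. Shown are the 250 bases before the RefSeq start (build GRCm38.p6) of both classical heavy chains, of the related chain H2-Q7, of B2m and of Tap1, 5′ to 3′ on the strand of the gene. Capitals mark 4 short motifs searched on both strands: GGGGATTCC (letters of a κB site), AANNGAAA (letters of an interferon-response element), TGACG (X2 box letters) and CCAAT (Y box letters). No marked matches overlap.
H2-K1 (chr17:34000348-34000597, minus strand): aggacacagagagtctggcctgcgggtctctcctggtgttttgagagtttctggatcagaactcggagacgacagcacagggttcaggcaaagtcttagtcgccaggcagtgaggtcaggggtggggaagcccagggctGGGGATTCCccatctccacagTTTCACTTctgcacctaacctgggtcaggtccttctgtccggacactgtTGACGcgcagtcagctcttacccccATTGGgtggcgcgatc
H2-D1 (chr17:35262844-35263093, plus strand): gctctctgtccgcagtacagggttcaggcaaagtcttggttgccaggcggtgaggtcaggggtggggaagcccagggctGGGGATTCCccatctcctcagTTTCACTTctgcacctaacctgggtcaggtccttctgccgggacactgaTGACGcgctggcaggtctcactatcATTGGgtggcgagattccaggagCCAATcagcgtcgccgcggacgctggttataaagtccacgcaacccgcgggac
H2-Q7 (chr17:35438905-35439154, plus strand): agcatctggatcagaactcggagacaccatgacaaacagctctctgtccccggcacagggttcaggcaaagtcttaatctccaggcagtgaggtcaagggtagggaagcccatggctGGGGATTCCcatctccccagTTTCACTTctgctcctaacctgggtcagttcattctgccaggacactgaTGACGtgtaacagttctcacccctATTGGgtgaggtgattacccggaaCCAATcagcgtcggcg
B2m (chr2:122147437-122147686, plus strand): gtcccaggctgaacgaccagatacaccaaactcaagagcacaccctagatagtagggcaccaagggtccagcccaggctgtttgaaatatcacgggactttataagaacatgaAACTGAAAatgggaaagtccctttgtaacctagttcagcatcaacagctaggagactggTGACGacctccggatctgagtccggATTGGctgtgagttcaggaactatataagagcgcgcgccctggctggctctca
Tap1 (chr17:34187306-34187555, plus strand): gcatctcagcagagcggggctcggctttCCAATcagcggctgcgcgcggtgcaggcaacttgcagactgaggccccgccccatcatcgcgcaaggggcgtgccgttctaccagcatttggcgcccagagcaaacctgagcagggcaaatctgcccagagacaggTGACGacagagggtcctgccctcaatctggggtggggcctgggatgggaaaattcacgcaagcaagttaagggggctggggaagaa

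The 3 heavy-chain promoters held the κB letters, the interferon-response letters, the X2 letters and the Y letters in this order, and B2m held all but the κB letters. Of all 32851 windows of this length in the RefSeq table, 0.213% held the κB letters, 21.3% the interferon-response letters, 17.8% the X2 letters and 33.8% the Y letters. Among the 8 members with a window, 2 held the κB letters, 3 the interferon-response letters, 5 the X2 letters and 6 the Y letters. The windows of Tap1 and Psmb9 overlap by 225 bases, so that their X2 and Y letters are the same bases read from either strand. A match of letters is a description of these windows and not a site.

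Levels are given as log2 RPKM (reads per kilobase of transcript and per M reads), which allows genes to be compared per length. The heavy chains and B2m were at 9.05 to 12.3 in every library, well above the transporter, Nlrc5 and the immunoproteasome subunits. Tapbp, the loading bridge tapasin, was at 6.03 to 8.16, Tap1 at 3.05 to 7.58, Tap2 at 3.41 to 5.88, Psmb8 at 3.83 to 5.85, Psmb10 at 2.22 to 5.74, Nlrc5 at 1.63 to 5.05 and Psmb9 at 0.77 to 4.52. The plot of member levels shows every library.

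**Figure D1:**
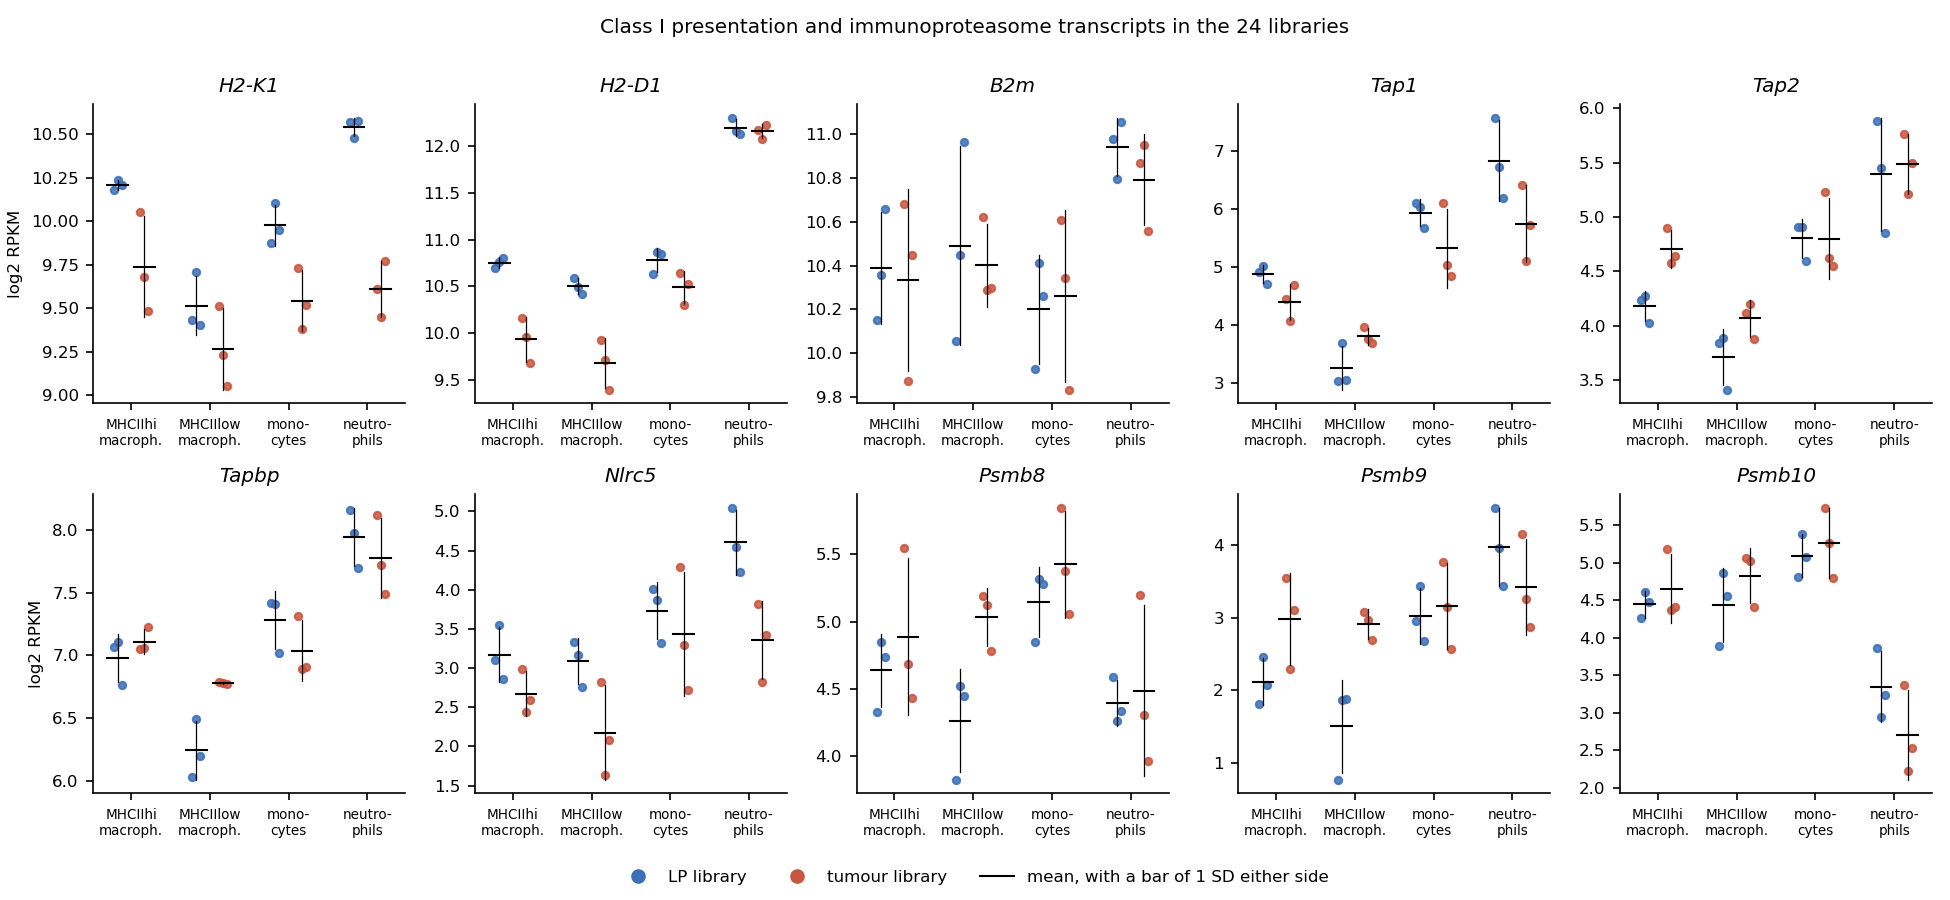
Level of the 10 transcripts (log2 RPKM, vertical axes differ between panels) in each of the 24 libraries, by sorted population; blue points are LP libraries, red points tumour libraries, and black lines give the mean with 1 SD either side (n = 3). H2-D1 was at 12.1 to 12.3 in all 6 neutrophil libraries and at 10.9 or less in the other 18.

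H2-D1 encodes a classical heavy chain and was lower in tumour than in LP macrophages of both subsets. In MHCIIhi macrophages its level was 10.70, 10.76 and 10.81 log2 RPKM in the LP libraries (pools III, IV and V) and 10.16, 9.95 and 9.68 in the tumour libraries (pools I, V and VII). All tumour libraries were below all LP libraries, and tumour pool VII was the lowest. The log2 fold change was −0.82 (SE 0.18, limma adjusted p = 0.00217), so that the tumour level was 0.565 times that of LP. In MHCIIlow macrophages the LP libraries had 10.59, 10.50 and 10.42 and the tumour libraries 9.92, 9.71 and 9.39, again without overlap. This gave −0.83 (SE 0.18, limma adjusted p = 0.00164). Both calls held in all 16 alternatives run for each comparison. In monocytes (−0.29, SE 0.18, limma adjusted p = 0.354) and neutrophils (−0.04, SE 0.18, limma adjusted p = 0.897) the test was not passed, with 95% intervals of −0.66 to 0.07 and −0.41 to 0.33. These depended on the scaling: under quantile normalization H2-D1 was lower in tumour monocytes (−0.74, limma adjusted p = 0.00729) and neutrophils (−1.17, limma adjusted p = 7.12e-05), and so it was in voom with summed reads as library sizes (−0.46 and −0.51).

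H2-K1, the other classical heavy chain measured, was most clearly lower in tumour neutrophils. Its level was 10.57, 10.48 and 10.58 log2 RPKM in LP neutrophils (pools III, IV and V) and 9.61, 9.45 and 9.77 in tumour neutrophils (pools I, II and V). The groups did not overlap, and the LP libraries lay close together. The log2 fold change was −0.93 (SE 0.17, limma adjusted p = 0.000258), or 0.525 times the LP level, and was called in all 16 alternatives. In MHCIIhi macrophages the LP libraries had 10.18, 10.23 and 10.21 and the tumour libraries 10.05, 9.68 and 9.48. The highest tumour library, pool I, was close to the LP libraries, and the log2 fold change of −0.47 (SE 0.17) missed the threshold with a limma adjusted p of 0.0535. With the pool number as a replicate block it was 0.0481, and without tumour pool I it was 0.0149. In monocytes all tumour libraries (9.38 to 9.73) were below all LP libraries (9.87 to 10.11), with a log2 fold change of −0.43 (SE 0.17, limma adjusted p = 0.113), and in MHCIIlow macrophages the groups overlapped (−0.25, SE 0.17, limma adjusted p = 0.313). The monocyte value was called under quantile normalization (−0.76, limma adjusted p = 0.00152), in voom (0.0364) and in voom with summed reads (−0.59).

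B2m, the light chain that every class I molecule needs, did not pass the test in any of the 4 populations. Its level ranged from 9.83 to 10.96 log2 RPKM over the macrophage and monocyte libraries and from 10.56 to 11.05 over neutrophils. The log2 fold changes were −0.06 (SE 0.26) in MHCIIhi macrophages, −0.09 in MHCIIlow macrophages, 0.06 in monocytes and −0.15 in neutrophils, and LP and tumour libraries overlapped in each. The 95% interval of the mean over the 4 populations ran from −0.33 to 0.21 and held 0, but the mean was −0.41 and called under quantile normalization (limma adjusted p = 0.00318). In neutrophils the value also depended on the scaling: it was −0.97 under quantile normalization (limma adjusted p = 0.0019) and −0.62 in voom with summed reads (0.0491).

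The called changes of peptide transport and loading genes lay in different populations, Tap1 lower in tumour neutrophils and Tapbp higher in tumour MHCIIlow macrophages. Within MHCIIlow macrophages both genes had positive values (0.55 and 0.54), and within neutrophils both had negative ones (−1.08 and −0.17). Tap1 was at 7.58, 6.73 and 6.20 log2 RPKM in LP neutrophils and at 6.42, 5.11 and 5.74 in tumour neutrophils. The highest tumour library (pool I) lay above the lowest LP library (pool V). The log2 fold change was −1.08 (SE 0.35, limma adjusted p = 0.0221), but without LP pool III it was −0.71 (limma adjusted p = 0.144) and without tumour pool II −0.76 (limma adjusted p = 0.129), and it was not called after centring on the median (−0.84, 0.0732) or with only the libraries compared (0.0828). Tap1 was not called in the other populations. Without overlap, it was lower in tumour MHCIIhi macrophages (−0.48, SE 0.35, limma adjusted p = 0.387) and higher in tumour MHCIIlow macrophages (0.55, SE 0.35, limma adjusted p = 0.291). In monocytes its libraries overlapped (−0.62, limma adjusted p = 0.319). Tapbp was higher in tumour MHCIIlow macrophages, with 6.03, 6.49 and 6.20 in LP (pools II, III and IV) and 6.79, 6.78 and 6.77 in tumours (pools I, V and VII). No libraries overlapped, and the log2 fold change was 0.54 (SE 0.17, limma adjusted p = 0.0295). The call was lost without any of 5 of these 6 libraries, with LP pool III as the exception, at limma adjusted p of 0.0654 to 0.129, and after centring on the median (0.47, limma adjusted p = 0.0659). Tap2 was not called in any population: its largest value, 0.53 (SE 0.23, limma adjusted p = 0.113) in MHCIIhi macrophages, came from tumour libraries at 4.58 to 4.90 that were all above LP libraries at 4.03 to 4.28. It was called under quantile normalization (0.66, limma adjusted p = 0.0268), with only the libraries compared (0.033) and in voom with summed reads (0.63).

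Psmb9, the immunoproteasome subunit in the place of constitutive Psmb6, was higher in tumour MHCIIlow macrophages. The LP libraries had 0.77, 1.87 and 1.88 log2 RPKM and the tumour libraries 3.09, 2.96 and 2.69. The groups did not overlap, and LP pool II was more than 1 log2 unit below the other LP libraries. The difference was 1.41 (SE 0.40, limma adjusted p = 0.0134), or 2.65 times the LP level. Without LP pool II it was 1.04 and no longer called (limma adjusted p = 0.0904). In MHCIIhi macrophages LP libraries had 1.82, 2.46 and 2.08 and tumour libraries 3.55, 2.3 and 3.10, and the overlapping groups gave 0.86 (SE 0.40, limma adjusted p = 0.145). Psmb8, which takes the place of Psmb5, was at 3.83 to 4.52 in LP and 4.79 to 5.19 in tumour MHCIIlow macrophages, a difference of 0.77 (SE 0.30, limma adjusted p = 0.0736) that was called under quantile normalization (0.82), with only the libraries compared and in both voom fits (limma adjusted p of 0.0173 to 0.0377). Psmb10, which takes the place of Psmb7, was not called in any population, with log2 fold changes from −0.64 in neutrophils to 0.40 in MHCIIlow macrophages. Without tumour pool I the neutrophil value was −1.10 and called (limma adjusted p = 0.0336).

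Nlrc5 was lower in tumour neutrophils, with 5.05, 4.54 and 4.22 log2 RPKM in LP and 3.82, 2.83 and 3.42 in tumours. The groups did not overlap. The log2 fold change was −1.25 (SE 0.37, limma adjusted p = 0.013), and it was −1.03 without LP pool III (limma adjusted p = 0.0661) and −0.99 without tumour pool II (limma adjusted p = 0.07). Quantile normalization gave −0.91 (limma adjusted p = 0.081). In MHCIIlow macrophages LP libraries had 3.33, 3.17 and 2.76 and tumour libraries 2.82, 1.63 and 2.08, which overlapped in pool I and gave −0.91 (SE 0.37, limma adjusted p = 0.0802). Without tumour pool I this was −1.23 and called (limma adjusted p = 0.0279), as it was under quantile normalization (−1.12) and in both voom fits. The values in MHCIIhi macrophages (−0.50) and monocytes (−0.29) were not called.

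**Figure D2:**
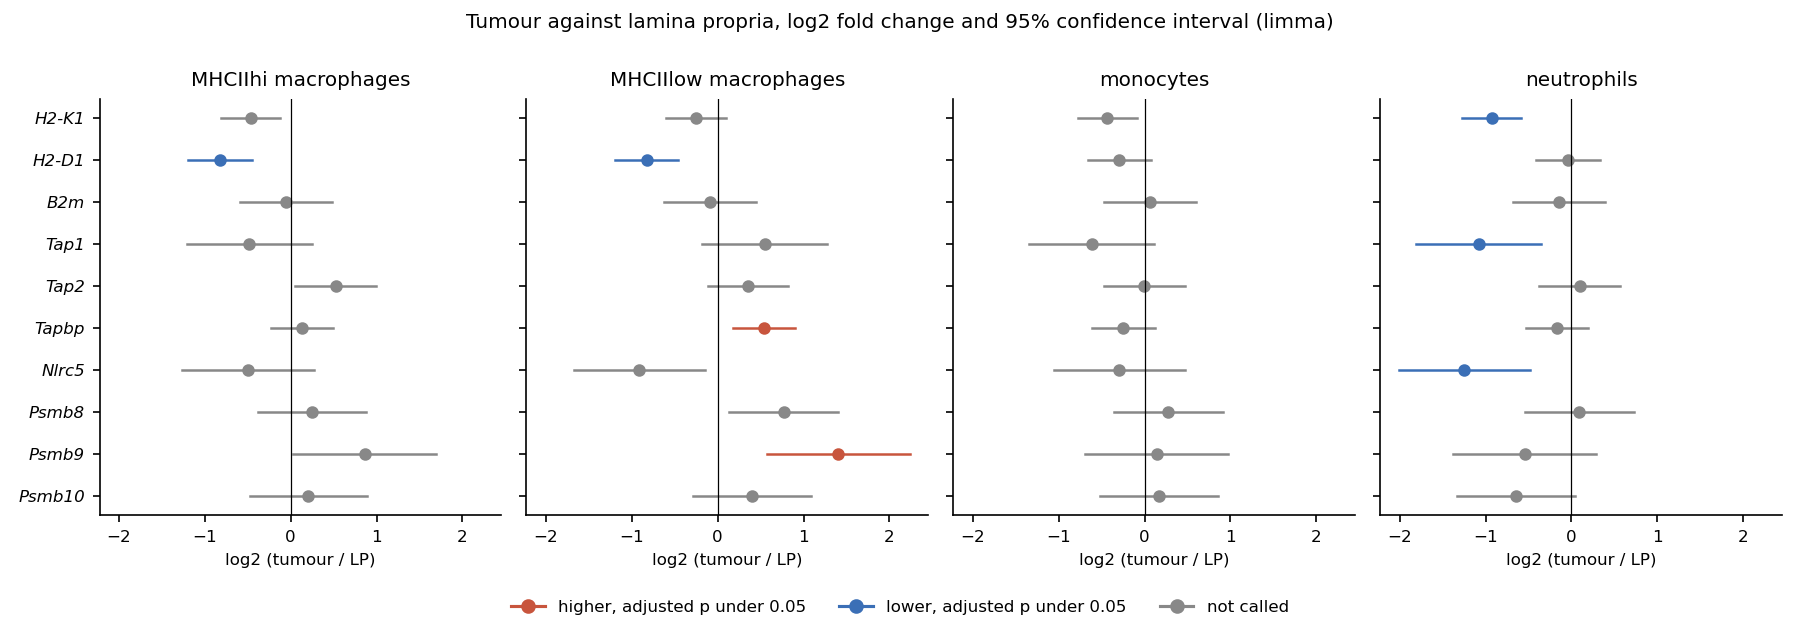
Log2 fold change of tumour over LP (horizontal axis) for each of the 10 transcripts in the 4 sorted populations, with 95% confidence intervals from limma; red is higher and blue lower at an adjusted p under 0.05, grey is not called. H2-D1 was lower in both macrophage subsets, and H2-K1, Tap1 and Nlrc5 in neutrophils.

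Counted over the members, the tumour comparisons were mixed. A gene was called at a limma adjusted p under 0.05. In MHCIIhi macrophages 0 of 10 members were called higher and 1 lower, where 8.01% of the 12878 genes tested were called higher and 11.5% lower; the members' median log2 fold change was 0.04 beside 0.00 for all genes. In MHCIIlow macrophages 2 were higher and 1 lower (11.5% and 11.8% of all genes; median 0.38 beside 0.06). In monocytes limma called 0 members higher and 0 lower (4.86% and 4.43% of all genes; median −0.12), 1 member, H2-K1, had an unadjusted p under 0.05, and voom on the recovered reads called 1. In neutrophils 0 were higher and 3 lower (13.1% and 19% of all genes; median −0.36 beside −0.12). In voom with summed reads the share of all calls that were higher in tumours was 58.5% in MHCIIhi macrophages (41.1% in limma) and 34.4% in monocytes (52.3%).

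Averaged over the 4 populations, 3 members were lower in tumours and 0 higher, beside 23% and 19.4% of all genes. H2-K1 had a mean log2 fold change of −0.52 (SE 0.08, limma adjusted p = 4.39e-05), H2-D1 of −0.50 (SE 0.09, limma adjusted p = 0.000144) and Nlrc5 of −0.74 (SE 0.18, limma adjusted p = 0.00295). All 3 were called in each of the 34 alternatives run. The fit takes libraries as independent, although most pools gave libraries of several populations, so these p-values may be too low. The replicate block among the alternatives uses the same correlation for all genes (0.0476). A pool effect particular to the members was not tested. The log2 fold changes of H2-K1, H2-D1 and Nlrc5 were negative in each of the 4 populations. That of H2-D1 was −0.82 in MHCIIhi and −0.83 in MHCIIlow macrophages, but −0.29 in monocytes and −0.04 in neutrophils. Psmb9 (0.47, limma adjusted p = 0.0667) and Psmb8 (0.35, limma adjusted p = 0.0711) were not called.

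A comparison added after the values were seen set the mean tumour effect of both macrophage subsets against that of neutrophils. Having been chosen from these same values, it has p-values that are a description. Of the members 2 were called higher in macrophages (14.5% of all genes were) and 1 lower (11.5%). For Psmb9 the difference was 1.68 (SE 0.49, limma adjusted p = 0.0152), made of effects of 0.86 and 1.41 in macrophages and −0.55 in neutrophils. For H2-K1 it was 0.57 (SE 0.20, limma adjusted p = 0.0432) and for H2-D1 −0.79 (SE 0.22, limma adjusted p = 0.0108). The median of all genes in this comparison was 0.17, 55.7% of all calls were higher in macrophages (35.5% after centring and 78.6% in voom with summed reads), and the value of H2-D1 turned to 0.45 under quantile normalization (limma adjusted p = 0.135) and was −0.25 in voom with summed reads (0.09). That of Psmb9 was positive in all 28 alternatives and lost its call without LP neutrophil pool III (1.41, limma adjusted p = 0.0557) or tumour neutrophil pool V (1.40, limma adjusted p = 0.0527). The H2-K1 call was lost when libraries were centred on their median (0.27, limma adjusted p = 0.385) with only the libraries compared (0.0619) and without any of 13 of these 18 libraries (0.0545 to 0.116).

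Between the macrophage subsets, Tap1, Tapbp and H2-K1 were lower in MHCIIlow cells of LP. In all, 3 members were lower in MHCIIlow than in MHCIIhi macrophages and 0 higher, where 5.57% of all genes were lower and 2.13% higher, and the members' median was −0.42 beside −0.03. Of all calls 27.6% were higher in MHCIIlow cells, and 69.5% in voom with summed reads. Tap1 was at 4.92, 5.03 and 4.72 log2 RPKM in MHCIIhi and at 3.05, 3.70 and 3.05 in MHCIIlow macrophages. All MHCIIlow libraries were more than 1 log2 unit below all MHCIIhi libraries, and the log2 fold change was −1.62 (SE 0.35, limma adjusted p = 0.0061), called in all 16 alternatives. Tap2 was not called (−0.47, SE 0.23, limma adjusted p = 0.246). H2-K1 (−0.69, SE 0.17, limma adjusted p = 0.0133) and Tapbp (−0.74, SE 0.17, limma adjusted p = 0.0121) were also lower without overlap. The H2-K1 call was lost without MHCIIhi pool IV or MHCIIlow pool II or IV (limma adjusted p of 0.0527, 0.0501 and 0.0597), and the Tapbp call without MHCIIhi pool III or IV or MHCIIlow pool II (0.0581, 0.0608 and 0.0684).

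In tumours limma called 0 members in either direction between the subsets (0.567% of all genes were higher and 0.567% lower). An unadjusted p under 0.05 was seen for H2-K1 and Tap2, and voom on the recovered reads called 0. Tap1 was at 4.45, 4.08 and 4.69 in tumour MHCIIhi and 3.97, 3.76 and 3.70 in tumour MHCIIlow macrophages, a log2 fold change of −0.59 (SE 0.35, limma adjusted p = 0.606). The tumour effect itself was not called as different between the subsets for any member (1.13% of all genes were called higher in MHCIIlow and 0.326% lower). Tap1 came nearest, with 1.03 (SE 0.49, limma adjusted p = 0.391, unadjusted p = 0.0497), and voom called 0. These comparisons share their libraries with those of tumour against LP. MHC class II genes, which the gate itself used, were lower in MHCIIlow macrophages of LP in 6 of 6 and of tumours in 5 of 6.

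Compared with monocytes, MHCIIhi macrophages had less Tap1. In LP 1 member was lower in MHCIIhi macrophages than in monocytes and 0 higher (10.8% and 9.26% of all genes). This was Tap1, with 6.12, 6.04 and 5.69 in LP monocytes, and its log2 fold change was −1.05 (SE 0.35, limma adjusted p = 0.0374). The call was lost without any of the 6 libraries compared, at limma adjusted p of 0.051 to 0.114. Tap2 missed the threshold (−0.62, SE 0.23, limma adjusted p = 0.0567) and passed it with the pool number as a block (0.0445). In tumours 2 members were lower and 0 higher (18.5% and 13.6% of all genes), with 42.3% of all calls higher (65.2% in voom with summed reads): Tap1 (−0.92, SE 0.35, limma adjusted p = 0.0488) and H2-D1 (−0.56, SE 0.18, limma adjusted p = 0.0199). The Tap1 call was lost without tumour MHCIIhi pool I, V or VII or tumour monocyte pool I (limma adjusted p of 0.0522 to 0.285) and with no filter (0.0568), only the libraries compared (0.0552), quantile normalization (−0.69, 0.118) and voom with summed reads (−0.68, 0.112). The H2-D1 call was lost without MHCIIhi pool VII or monocyte pool I or V (0.0966, 0.0842 and 0.0524) with only the libraries compared (0.089) and under quantile normalization (−0.28, limma adjusted p = 0.234).

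Neutrophils had more of the heavy chain H2-D1 and less of Psmb8 and Psmb10 than monocytes. In LP 7 members were higher and 2 lower in neutrophils than in monocytes, beside 24.1% and 30.4% of all genes, and the members' median was 0.70 beside −0.24. H2-D1 was at 12.31, 12.16 and 12.13 in LP neutrophils and at 10.63, 10.87 and 10.85 in LP monocytes. No libraries overlapped, and neutrophils were higher by 1.42 (SE 0.18, limma adjusted p = 1.19e-06). Psmb10 went the other way, at 3.86, 2.94 and 3.24 in neutrophils and 4.82, 5.39 and 5.08 in monocytes, with a log2 fold change of −1.75 (SE 0.33, limma adjusted p = 0.000157). Psmb8 was also lower (−0.76, SE 0.30, limma adjusted p = 0.0407), whereas Psmb9 was at 0.95 (SE 0.40, limma adjusted p = 0.0507, and 0.0397 with the pool number as a block). The other members called higher were B2m (0.74), Tap1 (0.89), Tap2 (0.59), Tapbp (0.66), H2-K1 (0.56) and Nlrc5 (0.87). Several of these calls rested on single libraries. B2m lost its call without monocyte pool III or neutrophil pool V (limma adjusted p of 0.0571 to 0.0878), Tap1 without monocyte pool IV or V or neutrophil pool III or IV (0.05685 to 0.23) and Tap2 without monocyte pool V or neutrophil pool III or IV (0.0773 to 0.214). Nlrc5 lost it without any library but neutrophil pool V (0.0501 to 0.192), and Psmb8 without monocyte or neutrophil pool IV or V (0.0866 to 0.113). The largest drop came without neutrophil pool III, where Tap1 was at 0.52 and Tap2 at 0.35.

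In tumours 3 members were higher and 2 lower in neutrophils (23.3% and 34.9% of all genes; median 0.34 beside −0.36). H2-D1 (1.67, SE 0.18, limma adjusted p = 1.09e-07), Tapbp (0.74) and Tap2 (0.69) were higher, and Psmb10 (−2.56, SE 0.33, limma adjusted p = 1.5e-06) and Psmb8 (−0.94) were lower. Tap2 lost its call without monocyte pool II or V or neutrophil pool I (limma adjusted p of 0.0547 to 0.0661) and Psmb8 without monocyte pool I or neutrophil pool V (0.0696 and 0.0808). Psmb10 was at 3.37, 2.22 and 2.52 log2 RPKM in tumour neutrophils, the lowest group of the 8, and at 5.74, 5.26 and 4.80 in tumour monocytes. The change from LP to tumour did not differ between neutrophils and monocytes for any member by this test (3.61% of all genes were called higher and 5.5% lower), with an unadjusted p under 0.05 for H2-K1 alone (−0.50, SE 0.23, limma adjusted p = 0.196) and 0 calls by voom. The sign of several of these values depended on how libraries were scaled. The deposited library sizes of neutrophils were 7.67 to 23.9 M, and their reads on genes 15.9 to 37.9 M. With quantile normalization and with summed reads as sizes, H2-K1 was at −0.92 and −0.26 in LP and at −1.43 and −1.07 in tumours, and B2m at −0.60 and −0.09 in LP and at −1.12 and −0.60 in tumours. Tapbp was at −0.39 to −0.16 in these fits. In LP, Tap1 was at 0.17 and 0.08, Tap2 at 0.18 and −0.23 and Nlrc5 at 0.58 and 0.07, and in tumours Tap2 was at 0.22 and −0.44, none of them called (limma adjusted p of 0.0895 to 0.861). Tap1 and Tap2 in LP were also not called with only the libraries compared (0.0567 and 0.0927), nor was Nlrc5 with no filter (0.0589). After centring on the median, 3 members were called higher in tumour neutrophils than in tumour monocytes. They were H2-K1 (0.52, limma adjusted p = 0.0173), B2m (0.98, 0.00329) and Tap1 (0.87, 0.0395). With summed reads as sizes, Nlrc5 was called lower in tumour neutrophils (−1.19, limma adjusted p = 0.01055). H2-D1 stayed higher in LP neutrophils under every scaling, but in tumours it was at 0.04 under quantile normalization (limma adjusted p = 0.879). Psmb10 was called lower under every scaling, and Psmb8 was negative under each but not called after centring on the median (−0.47 in LP and −0.49 in tumours). The share of all calls that were higher in neutrophils moved with centring from 44.2% to 54.1% in LP and from 40% to 53.1% in tumours, and for tumour against LP neutrophils from 40.8% to 57.1%. In voom with summed reads these shares were 23.3%, 17.3% and 18.9%, with the median of all genes at −1.04, −1.37 and −0.53.

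On the deposited scaling, the order of the 8 groups differed between the members. For H2-K1 it ran from LP neutrophils (10.54 ± 0.05, SD, n = 3) over LP MHCIIhi macrophages (10.21 ± 0.03) to LP monocytes (9.98 ± 0.12), which overlapped with tumour MHCIIhi macrophages (9.74 ± 0.29), and down to tumour MHCIIlow macrophages (9.27 ± 0.23), with every neighbour below LP monocytes overlapping the next. For H2-D1 both neutrophil groups were on top (12.20 ± 0.09 in LP and 12.16 ± 0.07 in tumours, overlapping) and both tumour macrophage groups at the bottom (9.93 ± 0.24 and 9.67 ± 0.27, overlapping). Tap1 was ordered from LP neutrophils (6.84 ± 0.70) to LP MHCIIlow macrophages (3.27 ± 0.38), and its lowest 4 groups, all macrophages, did not overlap with each other. Tap2 and Tapbp had neutrophils on top and LP MHCIIlow macrophages at the bottom as well. Psmb9 was highest in LP neutrophils (3.97 ± 0.54), and its lowest groups were LP MHCIIhi (2.12 ± 0.32) and LP MHCIIlow (1.51 ± 0.63) macrophages, which overlapped with each other but not with tumour MHCIIlow macrophages (2.91 ± 0.20). Psmb8 and Psmb10 were highest in tumour monocytes (5.43 ± 0.40 and 5.27 ± 0.47). B2m neighbours overlapped throughout, and so did those of Nlrc5 below LP neutrophils (4.60 ± 0.42). The place of neutrophils depended on the scaling. Under quantile normalization LP neutrophils were below LP monocytes for H2-K1 (log2 fold change −0.92), B2m (−0.60) and Tapbp (−0.31, not called). H2-D1 stayed higher in LP neutrophils than in LP monocytes under every scaling.

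The ratio of each immunoproteasome subunit to the constitutive subunit it replaces was taken within each library, where library size cancels out. The ratio of Psmb9 to Psmb6 had a higher mean in tumours in all 4 populations, by a test that depended on how pools were treated. In MHCIIlow macrophages its log2 value was −4.45 to −3.64 in LP and −2.95 to −2.91 in tumours, without overlap. In MHCIIhi macrophages it was −3.38 to −2.94 and −3.02 to −1.83, which overlapped. The mean difference over the 4 populations was 0.64 with an exact two-sided permutation p of 0.0006 (tissue exchanged within populations, 160000 arrangements; 0.0018 adjusted over the 3 ratios). That test takes the libraries as independent, although most pools gave libraries of several populations. With whole pools exchanged (4 of each tissue, 70 arrangements) the exact permutation p was 0.0286, the smallest these can give, and 0.0857 adjusted over the 3 ratios, which does not pass the threshold. With this ratio alone at the smallest p the adjusted value could not pass, so it cannot decide the question. Within populations the mean difference was 0.85 in MHCIIhi macrophages, 0.99 in MHCIIlow macrophages, 0.27 in monocytes and 0.47 in neutrophils, where Psmb9 had a log2 fold change of −0.55 and Psmb6 fell by 1.02 (SE 0.24, limma adjusted p = 0.00257).

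The ratio of Psmb8 to Psmb5 had a mean difference of 0.26 (exact permutation p = 0.0415, adjusted 0.0622, and 0.2 with whole pools exchanged), and that of Psmb10 to Psmb7 of 0.16 (exact permutation p = 0.37, adjusted 0.37, and 0.514 with whole pools). The constitutive subunits themselves, Psmb5, Psmb6 and Psmb7, were not called between tumour and LP in macrophages or monocytes, with log2 fold changes from −0.27 to 0.46. Psmb5 shares 53.2% of its 51-base stretches with other annotated genes, so its level is uncertain. Psmb9 to Psmb6 was at −0.35 ± 0.41 (SD, n = 3) in LP neutrophils and −3.93 ± 0.46 in LP MHCIIlow macrophages, whereas Psmb10 to Psmb7 was at −1.63 ± 0.60 in LP neutrophils and −0.78 ± 0.52 in LP MHCIIlow macrophages.

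**Figure D3:**
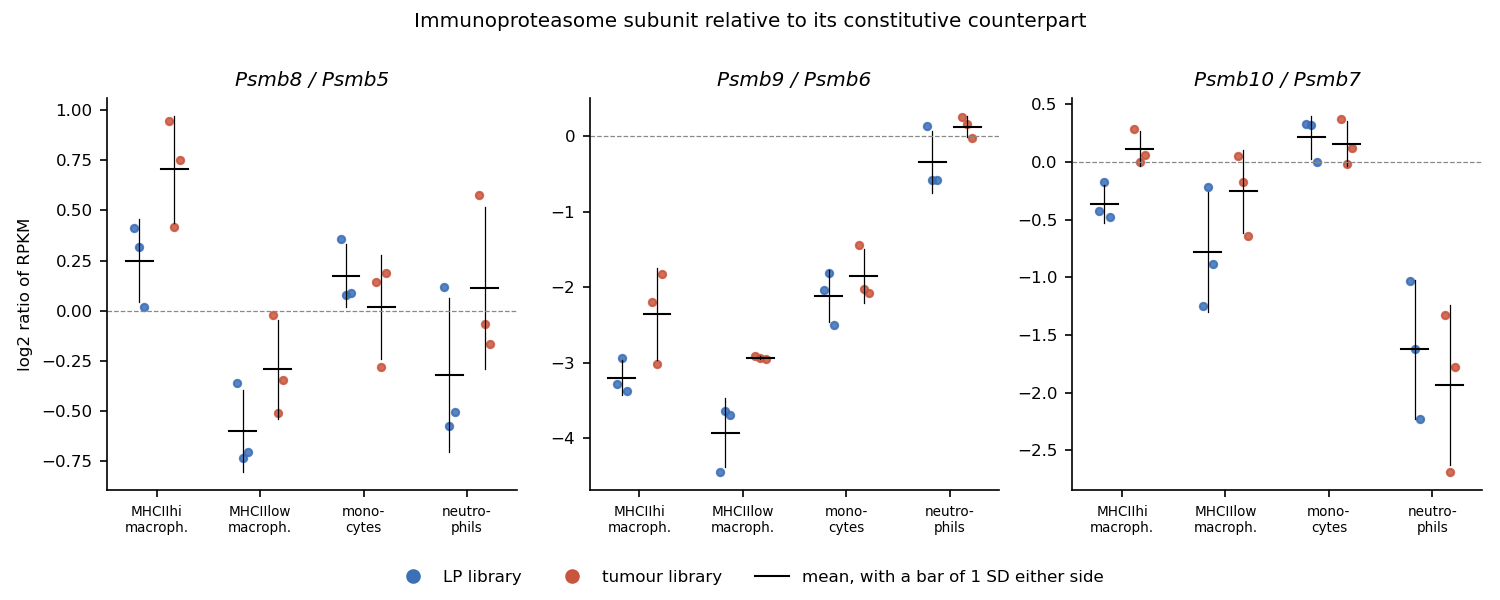
Log2 ratio of RPKM of each immunoproteasome subunit to its constitutive counterpart (vertical axes differ) in each library; blue points are LP, red points tumour, black lines the mean with 1 SD either side (n = 3), and the dashed line equal RPKM. The ratio of Psmb9 to Psmb6 was between −4.45 and −2.94 in LP macrophages and between −3.02 and −1.83 in tumour macrophages.

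Among 11 other class I heavy chains, H2-Q6 and H2-Q7, encoded in the Q region, had the largest falls. H2-Q6 was at 7.23, 7.46 and 7.65 log2 RPKM in LP and at 5.87, 4.62 and 4.67 in tumour MHCIIhi macrophages. Its log2 fold change was −2.40 there (limma adjusted p = 0.000231), −2.65 in MHCIIlow macrophages and −2.12 in neutrophils, all called, and −1.0 in monocytes, which was not. H2-Q7 was at 5.03, 5.43 and 5.35 in LP and 4.36, 3.27 and 3.05 in tumour MHCIIhi macrophages, with log2 fold changes of −1.71, −1.65 and −1.52 called in the same 3 populations. Neither gene overlapped between tissues in MHCIIhi macrophages. H2-Q6 shares 34.3% and H2-Q7 26.0% of its 51-base stretches with other genes. H2-M3, a non-classical chain that presents formylated peptides, rose in tumour MHCIIhi (0.75) and MHCIIlow (0.67) macrophages, and Cd1d1, the lipid-presenting chain, in MHCIIlow macrophages (1.18). In neutrophils H2-T23, which encodes the Qa-1 chain, rose by 0.83. In all, 1 of 11 was higher and 2 lower in MHCIIhi macrophages, 2 and 2 in MHCIIlow macrophages, 0 and 0 in monocytes, and 1 and 2 in neutrophils.

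Between neutrophils and monocytes the largest difference of a heavy chain was that of H2-Q10, known as a secreted class I chain of liver. It had 8999 to 20879 reads in LP neutrophils and 112 to 379 in LP monocytes, and the log2 fold change was 7.07 in LP and 6.21 in tumours, both called. Of its 51-base stretches 18.7% are shared with other class I genes.

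For these lists as well, the shares of all genes called higher and lower in tumours were 8.01% and 11.5% in MHCIIhi macrophages, 11.5% and 11.8% in MHCIIlow macrophages, 4.86% and 4.43% in monocytes and 13.1% and 19% in neutrophils. Of 7 other loading and trimming genes, 1 was higher in tumour MHCIIhi macrophages and 4 in MHCIIlow macrophages, with 0 lower in either, and in neutrophils 0 were higher and 4 lower. In MHCIIlow macrophages the largest rises were those of Erap1, the peptidase that trims class I peptides (1.2), and Tapbpl, a homologue of tapasin (0.97). In neutrophils the largest falls were those of Tapbpl (−0.96) and Canx, a chaperone of new heavy chains (−0.92). The medians of the 7 genes were 0.19, 0.69, −0.10 and −0.70 in MHCIIhi macrophages, MHCIIlow macrophages, monocytes and neutrophils. Among 11 other core subunits of the proteasome 1 was lower in MHCIIhi macrophages, 1 lower in MHCIIlow macrophages, 1 higher in monocytes and 1 lower in neutrophils. Of 9 activator and assembly genes, Psme1 and Psme2, which encode the interferon-inducible activator, were not called in any population, with log2 fold changes from −0.16 to 0.59.

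**Figure D4:**
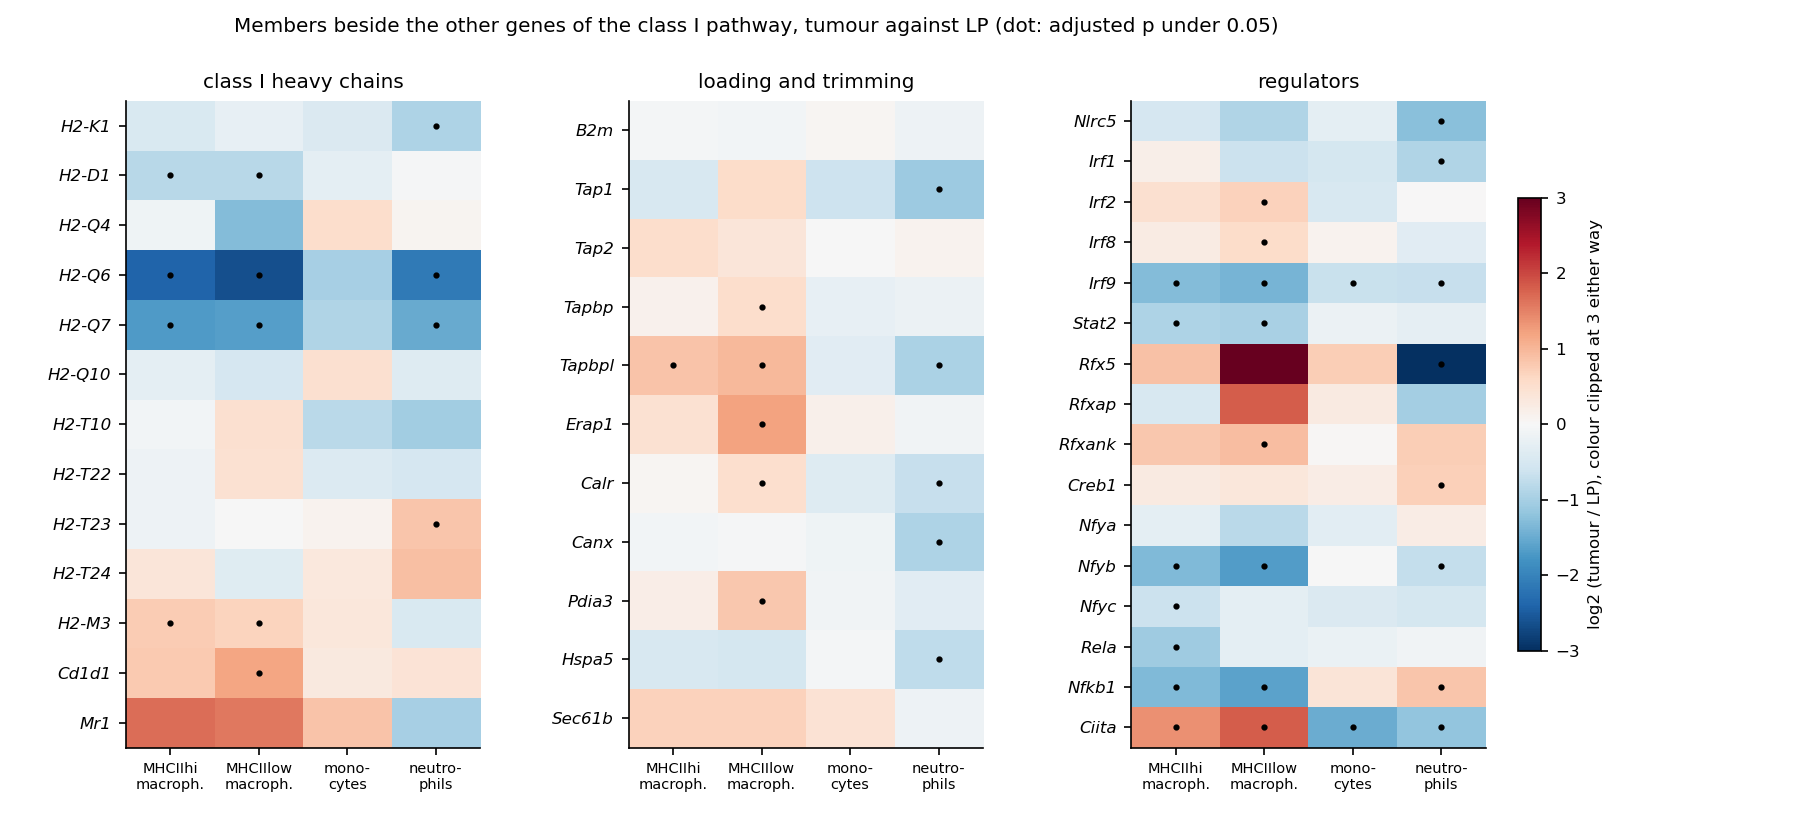
Log2 fold change of tumour over LP (colour, clipped at 3 either way) for the members and the other genes of the class I pathway reported here, in the 4 populations; a dot marks an adjusted p under 0.05 (limma). H2-Q6 and H2-Q7 were lower in 3 populations, and 4 loading and trimming genes other than the members were higher in MHCIIlow macrophages and 4 lower in neutrophils.

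Regulators of class I transcription moved both ways. Of 16, 1 was higher and 6 lower in tumour MHCIIhi macrophages, 5 and 4 in MHCIIlow macrophages, 0 and 2 in monocytes, and 2 and 5 in neutrophils. As shares of 16 these stand beside 8.01% and 11.5%, 11.5% and 11.8%, 4.86% and 4.43%, and 13.1% and 19% of all genes. Irf9, a DNA-binding factor of type I interferon signalling, had log2 fold changes of −1.30, −1.40, −0.67 and −0.68 in the 4 populations, all called. Irf1, the interferon-induced factor that binds class I promoters, was lower in tumour neutrophils (−0.90), at 7.47, 6.94 and 6.54 in LP and 6.09, 5.92 and 6.22 in tumours. In MHCIIlow macrophages all tumour libraries of Irf1 (4.21 to 4.57) were also below all LP libraries (4.76 to 5.31). Its libraries overlapped between tissues in monocytes and MHCIIhi macrophages. Nfkb1 was lower in both tumour macrophage subsets (−1.33 and −1.61) and higher in tumour neutrophils (0.84). Ciita, the class II counterpart of Nlrc5, was higher in tumour MHCIIhi (1.37) and MHCIIlow (1.81) macrophages and lower in tumour monocytes (−1.50) and neutrophils (−1.18, with 12 to 16 reads in tumour and 28 to 109 in LP libraries), where Nlrc5 was lower in neutrophils and not called in the others. Rfx5, a DNA-binding subunit shared by class I and class II promoters, was thinly covered: it had 0, 7 and 21 reads in tumour neutrophils and 68, 20 and 168 in LP neutrophils, and was called lower there (−3.54, SE 1.31, limma adjusted p = 0.0438) although the groups overlapped. In MHCIIlow macrophages Rfx5 was at −3.35, −2.12 and −2.59 log2 RPKM in LP (16 to 27 reads) and 0.28, 1.15 and −0.19 in tumours (135 to 533 reads), without overlap, and this difference of 3.10 was not called (SE 1.31, limma adjusted p = 0.0963).

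Of 9 interferon receptors and kinases, Socs1, the feedback inhibitor of this pathway, was lower in tumour MHCIIhi (−2.04) and MHCIIlow (−2.04) macrophages and neutrophils (−2.42), and Ifngr1, the ligand-binding chain of the interferon-γ receptor, was higher in both tumour macrophage subsets (0.82 and 1.60). Of 10 interferon-γ-inducible genes tested, 1 was higher and 3 lower in MHCIIhi macrophages, 2 and 1 in MHCIIlow macrophages, 0 and 5 in monocytes, and 0 and 6 in neutrophils. Their medians were −0.69, 0.08, −1.73 and −2.05. Irgm1, a guanosine triphosphatase of cell-autonomous defence, was lower in all 4 populations (−2.0, −1.66, −2.12 and −2.38), whereas Gbp7 was higher in MHCIIhi (1.55) and MHCIIlow (1.02) macrophages. Cxcl9, a chemokine for T cells, rose by 2.23 in MHCIIlow macrophages and fell by 3.07 in neutrophils. The largest fall in both monocytes and neutrophils was that of Iigp1, which had 0 to 12 reads in tumour neutrophils and 73 to 140 in LP neutrophils.

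Across the 24 libraries, genes whose pattern was among the most like the mean of the centred members were H2-T22 (Pearson r = 0.913), Sdhaf2 (0.899), Gbp2 (0.891), Ogfr (0.868) and Zbp1 (0.868), out of 10734 genes compared. The libraries share their scaling, and H2-T22 shares 52.9% of its 51-base stretches with other genes, so these values are a description. On the deposited scaling, the mean of the members was highest in LP neutrophils (0.45 to 1.03 above the mean of all libraries) and lowest in LP MHCIIlow macrophages (−0.84 to −0.41).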

How the data were processed

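Sorted populations were sequenced as modified SMARTSeq v2 libraries with paired ends of 51 bases. The authors mapped to GRCm38/mm10 (STAR 2.3), summarised GENCODE genes with featureCounts 1.5, dropped genes under 10 reads on average in all populations, and deposited log2 RPKM with scaled library sizes. Reads were back-calculated from these values, with 100% of 415224 values whole within 0.0001 reads at a prior count of 0.25. For all 14 comparisons limma 3.58.1 (R 4.3.3) was run on 8 group means of the deposited log2 RPKM, with an intensity trend, for the 12878 genes whose RPKM averaged 1 or more in some group. Benjamini-Hochberg adjustment covered all genes of a comparison, with 0.05 as threshold. The scripts were tested on simulated data. Ratios were tested by exact permutation (scipy 1.17.1). Positions came from GENCODE M21, promoters from RefSeq.

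Members and lists were chosen with earlier results of these data known. Genes named were all members, Psmb5, Psmb6, Psmb7, Irf1, Rfx5 and Ciita, up to 2 called rises and 2 called falls per list and comparison, and the genes most like the members. A further gene that this rule names is not reported here. Psme1 and Psme2 were named after their values were seen, as were values of listed genes in comparisons where others moved more. The labels call the pool number a donor, so it was taken to pair libraries of a tissue: over 29 pairs, deviations from group means correlated at −0.0661 to 0.255 (median 0.0169). Limma p-values measure the spread between pools within a group. Outside the replicate block they take all 24 libraries as independent, although most pools gave libraries of several populations. Alternatives were other pseudocounts, filters and scalings, voom on back-calculated reads, only the libraries compared, a replicate block and leaving out each library. Voom with summed reads as sizes, macrophages against neutrophils, and the ratio test with whole pools exchanged were added after seeing the data.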

Additional observations from a re-analysis of the deposited data

Results flagged for a closer look

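For 3 members the change from LP to tumour differed between the mean of both macrophage subsets and neutrophils, by a limma test of the difference itself in a comparison chosen after seeing the data. For Psmb9 the difference was 1.6812 on the log2 scale (limma adjusted p = 0.0152), for H2-K1 0.5723 (limma adjusted p = 0.0432) and for H2-D1 −0.7851 (limma adjusted p = 0.0108). Quantile normalization gave 0.4457 for H2-D1. The H2-K1 call was lost after centring on the median (0.27, limma adjusted p = 0.385) and when most of the libraries compared were left out in turn. Psmb9 lost its call without LP neutrophil pool III (limma adjusted p = 0.0557) or tumour neutrophil pool V (0.0527). Because the comparison was chosen from these same values, its p-values are a description.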

How the results depend on the processing

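Over 14 comparisons, 2348 of 2660 values of single members under an alternative kept direction and side of the threshold, 92 lost and 95 gained a call, 15 changed sign with a call in at least 1 fit, and 110 changed sign with no call in either. Of 33 called values, 11 were called under every alternative. Unless a setting below shows it, the cause was not tested.

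In tumour against LP, the members called in MHCIIhi macrophages were 2 instead of 1 with log2(RPKM + 1), log2(RPKM + 0.1), no filter, a stricter filter (a mean of 5 RPKM), quantile normalization, median centring, only the libraries compared, voom or the replicate block, and 3 with summed reads as sizes. In MHCIIlow macrophages they were 5 instead of 3 with quantile normalization, voom and summed reads. In monocytes they were 2, 1 and 2 in these fits instead of 0. In neutrophils they were 6 instead of 3 with summed reads. For the mean of 4 populations they were 7 with quantile normalization and 6 with centring instead of 3. In LP MHCIIhi macrophages against monocytes they were 2 instead of 1 with both pseudocounts, the stricter filter, voom and the replicate block, 4 with only the libraries compared and 3 with summed reads. In tumours they were 1 with no filter and 0 with only the libraries compared instead of 2. In LP neutrophils against monocytes they were 5 with quantile normalization and 4 with summed reads instead of 9. With summed reads they were 1 instead of 0 for neutrophils minus monocytes and 5 instead of 3 for macrophages minus neutrophils.

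Reversed values of neutrophils against monocytes in LP were −0.9243 for H2-K1, −0.6043 for B2m and −0.3118 for Tapbp with quantile normalization, and −0.2632, −0.0895, −0.2278 and −0.1621 for H2-K1, B2m, Tap2 and Tapbp with summed reads. In tumours they were −1.4265, −1.1177 and −0.3025, and −1.0698, −0.6047, −0.435 and −0.3851. H2-D1 reversed to 0.4457 in macrophages minus neutrophils with quantile normalization. The ratio of Psmb8 to Psmb5 was 0.3996 without the monocytes and passed the threshold (exact permutation, adjusted p = 0.0124). The median of all genes for LP neutrophils against monocytes was −0.24, and −1.04 with summed reads. Thin cover limits Rfx5 (0 to 21 reads), Ciita (12 to 16) and Iigp1 (0 to 12) in tumour neutrophils.

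Leaving out 1 library at a time, the members called ranged from 1 to 2 in MHCIIhi macrophages, 1 to 3 in MHCIIlow macrophages, 0 to 0 in monocytes, 1 to 4 in neutrophils and 3 to 5 for the mean of 4 populations. They ranged from 1 to 3 and 0 to 0 between subsets in LP and tumours, 0 to 0 and 0 to 2 for MHCIIhi macrophages against monocytes, 5 to 8 and 4 to 5 for neutrophils against monocytes, and 0 to 0, 0 to 0 and 1 to 5 for the 3 differences. The ratios ranged from 0.2024 to 0.3154 for Psmb8 to Psmb5, 0.5793 to 0.7285 for Psmb9 to Psmb6 and 0.0846 to 0.255 for Psmb10 to Psmb7.

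With the pool number as a replicate block 2, 3, 0 and 3 members were called in the 4 populations, 3 for their mean, and 10 and 5 in neutrophils against monocytes. With whole pools exchanged as a replicate block, the ratio of Psmb9 to Psmb6 (0.6449) did not pass the threshold (exact permutation, adjusted p = 0.0857, with 0.0286 as the smallest p before adjustment). It could not pass after adjustment with this ratio alone at that smallest p. In limma the block changed 3 calls, H2-K1 in MHCIIhi macrophages (limma adjusted p = 0.0481), Tap2 in LP MHCIIhi macrophages against monocytes (0.0445) and Psmb9 in LP neutrophils against monocytes (0.0397), and no other call of a member.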

Other observations

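The tumour library of pool I had the highest mean of the members, each centred on its mean over all libraries, in all 4 tumour groups: 0.136 in MHCIIhi macrophages, −0.212 in MHCIIlow macrophages, 0.607 in monocytes and 0.628 in neutrophils. It was the highest library of its group for 8, 9, 10 and 7 of the 10 members. How many of all genes were highest in this pool was not counted, so whether these counts are particular to the members is not known. Whether library scaling had a part was not tested. In LP no pool was highest throughout: it was pool IV in MHCIIhi macrophages (0.003) and monocytes (0.454) and pool III in MHCIIlow macrophages (−0.406) and neutrophils (1.028).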
